A study of Mus musculus with 14 samples.

Results

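The MYC, MAX and MXD network is a set of transcription factors that pair with one another on DNA, and it was followed here through 10 mouse genes: Myc, Mycn, Max, Mxd1, Mxd3, Mxd4, Mxi1, Mnt, Mga and Mlx. The genes were taken by name. All 10 have a row among the 24465 genes of the RNA count tables, and 28 of the 40772 regions in the deposited table of acetylated histone H3 lysine 27 (H3K27ac) carry the symbol of 9 of them. No region carries the symbol of Mycn.

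Cells of the Y1 line, a mouse adrenocortical tumour line, were held without serum for 48 h. They then received 10 ng/ml fibroblast growth factor 2 (FGF-2) together with 10% fetal bovine serum, or the same serum by itself, and were collected at 5 h. Both groups were therefore starved and then given serum, and the comparison is of FGF-2 added to serum. RNA selected for poly(A) was sequenced in 3 libraries per group, and H3K27ac chromatin in 2 libraries per group, each with an input library. All libraries come from 1 cell line, and nothing in the labels says that replicates were separate cultures, so the p-values measure the spread between libraries, which may be technical.

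MYC proteins switch on genes of growth and metabolism, and they bind DNA only when paired with MAX, at a short sequence called the E-box. MXD1, MXD3, MXD4, MXI1 and MNT compete for MAX and bring corepressors to the same sites, so the balance of the partners is commonly read as a balance of growth against arrest or differentiation. MGA also pairs with MAX, as part of a Polycomb complex that silences germ cell genes, while MLX stands beside MAX as another partner protein that links MNT, MXD1 and MXD4 to the glucose-sensing factors MLXIP and MLXIPL.

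Promoter sequences were available from RefSeq (GRCm38.p6, the mm10 assembly) for 9 of the 10 genes, all but Myc, whose promoter was therefore not searched. They form 11 windows of 300 bases that run from 250 bases before the transcription start to 50 bases after it. Of these, 4 hold the E-box CACGTG, one each for Max, Mxd4, Mnt and Mlx, while 7.15% of 32851 promoters of the same length hold it. They are printed here because the E-box is the site that the network itself binds, with the E-box in capitals and each read 5′ to 3′ on the gene's own strand. The Max window is chr12:76962199-76962498 on the minus strand and the Mxd4 window chr5:34187661-34187960 on the minus strand. The Mnt window is chr11:74830674-74830973 on the plus strand and the Mlx window chr11:101087040-101087339 on the plus strand.
Max: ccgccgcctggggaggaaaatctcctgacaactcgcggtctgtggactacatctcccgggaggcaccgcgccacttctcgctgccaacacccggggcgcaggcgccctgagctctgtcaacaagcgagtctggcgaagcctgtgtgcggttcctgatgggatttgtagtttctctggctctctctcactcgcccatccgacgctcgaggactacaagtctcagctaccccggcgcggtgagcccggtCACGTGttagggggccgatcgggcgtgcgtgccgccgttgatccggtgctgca
Mxd4: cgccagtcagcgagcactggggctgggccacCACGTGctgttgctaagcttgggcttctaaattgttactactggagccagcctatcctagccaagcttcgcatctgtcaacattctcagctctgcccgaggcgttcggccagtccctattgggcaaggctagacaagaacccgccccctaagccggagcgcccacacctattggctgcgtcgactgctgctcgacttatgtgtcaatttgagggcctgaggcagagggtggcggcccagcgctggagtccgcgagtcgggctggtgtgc
Mnt: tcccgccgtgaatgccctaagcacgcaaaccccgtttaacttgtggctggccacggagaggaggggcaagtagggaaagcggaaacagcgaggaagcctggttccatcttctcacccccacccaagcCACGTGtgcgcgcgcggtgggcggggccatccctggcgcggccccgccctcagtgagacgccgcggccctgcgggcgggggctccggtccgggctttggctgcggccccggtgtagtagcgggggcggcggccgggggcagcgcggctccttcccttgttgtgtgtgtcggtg
Mlx: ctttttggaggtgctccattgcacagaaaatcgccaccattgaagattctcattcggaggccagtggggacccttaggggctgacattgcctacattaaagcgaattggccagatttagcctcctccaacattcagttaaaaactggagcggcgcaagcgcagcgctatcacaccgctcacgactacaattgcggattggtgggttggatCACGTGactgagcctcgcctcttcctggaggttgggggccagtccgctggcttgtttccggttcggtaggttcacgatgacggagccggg
Relative to the transcription start, the first base of the E-box lies at -3 in Max, -219 in Mxd4, -123 in Mnt and -40 in Mlx. The H3K27ac regions described further on cover all 300 bases of the Mnt and Mlx windows, but 85 bases of the Max window and 58 of the Mxd4 window. Of these 4 genes, Max rose in RNA, Mxd4 fell, and Mnt and Mlx did not pass the test. Other motifs searched on both strands were the ETS core CCGGAA, found in the Mlx window and in 14.9% of all promoters, and the AP-1 site TGANTCA, found in no window of the network and in 7.81% of all promoters. The E2F site, searched as TTTGGCGC or TTTCCCGC, occurred at 2 places in the Mycn window and in 1.56% of all promoters. The FOXO site TGTTTAC occurred in 1 of the 3 Mxi1 windows and in 3.65% of all promoters. In these windows no match overlapped a match of another motif. The Mga window belongs to a start inside the gene that no H3K27ac region covers.

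Counts in genes came to 11272041, 12696426 and 6403095 in the FGF-2 RNA libraries and to 9101089, 8159993 and 5625004 in those of serum alone. RNA levels are given as CPM, in which counts are scaled so that libraries can be compared, and a count of 0 allowed at most 0.265 to 0.543 CPM (3 counts of each library's scaled total, for counting error only). Both libraries numbered 3 were the shallowest of their group and stood apart on the second principal component of log2 CPM (8.09% of the variance), at -17.3 with FGF-2 and -17.4 with serum alone, while the other 4 lay between 4.35 and 12.7. Summed markers of adrenocortical cells stood at 2263 to 3748 CPM with FGF-2 and 654 to 898 CPM with serum alone. The sum mainly follows Star, the leading gene and the only 1 of 8 markers higher. Star stood at 2012, 1715 and 3162 CPM with FGF-2, against 97.0, 117 and 281 CPM with serum alone. Of the others, Cyp11a1 was lower (-0.76, edgeR adjusted p = 0.0454), Nr0b1 was at 0 and the corticotropin receptor Mc2r was near 0 in both groups. Summed fibroblast and capsule markers stood at 2236 to 3099 CPM with FGF-2 and 3062 to 3824 CPM with serum alone, with Col1a1 the leading gene, Col1a2 and Dcn at 0 and 1 of 9, Col3a1, lower. Medulla markers summed to at most 7.02 CPM in any library, with Th and Dbh at 0 and Ddc lower, and those of endothelium and blood to at most 16.3 CPM, with Tek, Hbb-bs and Hba-a1 at 0 and Pecam1 lower. Their part in the results was not tested, and in bulk RNA fewer cells of a kind cannot be told apart from less RNA per cell. A marker listed at 0 does not show that a cell type was absent, since Col1a2 is at 0 beside an abundant Col1a1, and Gsk3b and Nop56 are at 0 too.

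Adding FGF-2 changed the RNA of 7 of the 9 network genes that could be tested, where 46.3% of all tested genes were called in either direction. Myc, its partner Max, and the repressors Mxi1 and Mxd1 rose, while the repressors Mxd3, Mxd4 and Mga fell. Mnt and Mlx did not pass the test. The higher calls make up 44.4% of the tested members, against 22.1% of the 10374 genes tested, and the lower calls 33.3%, against 24.2%. The median log2 fold change over the 9 genes was 0.076, against -0.023 over all tested genes. The libraries of both groups did not overlap for 7 of the 9 genes, against 57.5% of all tested genes.

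**Figure D1:**
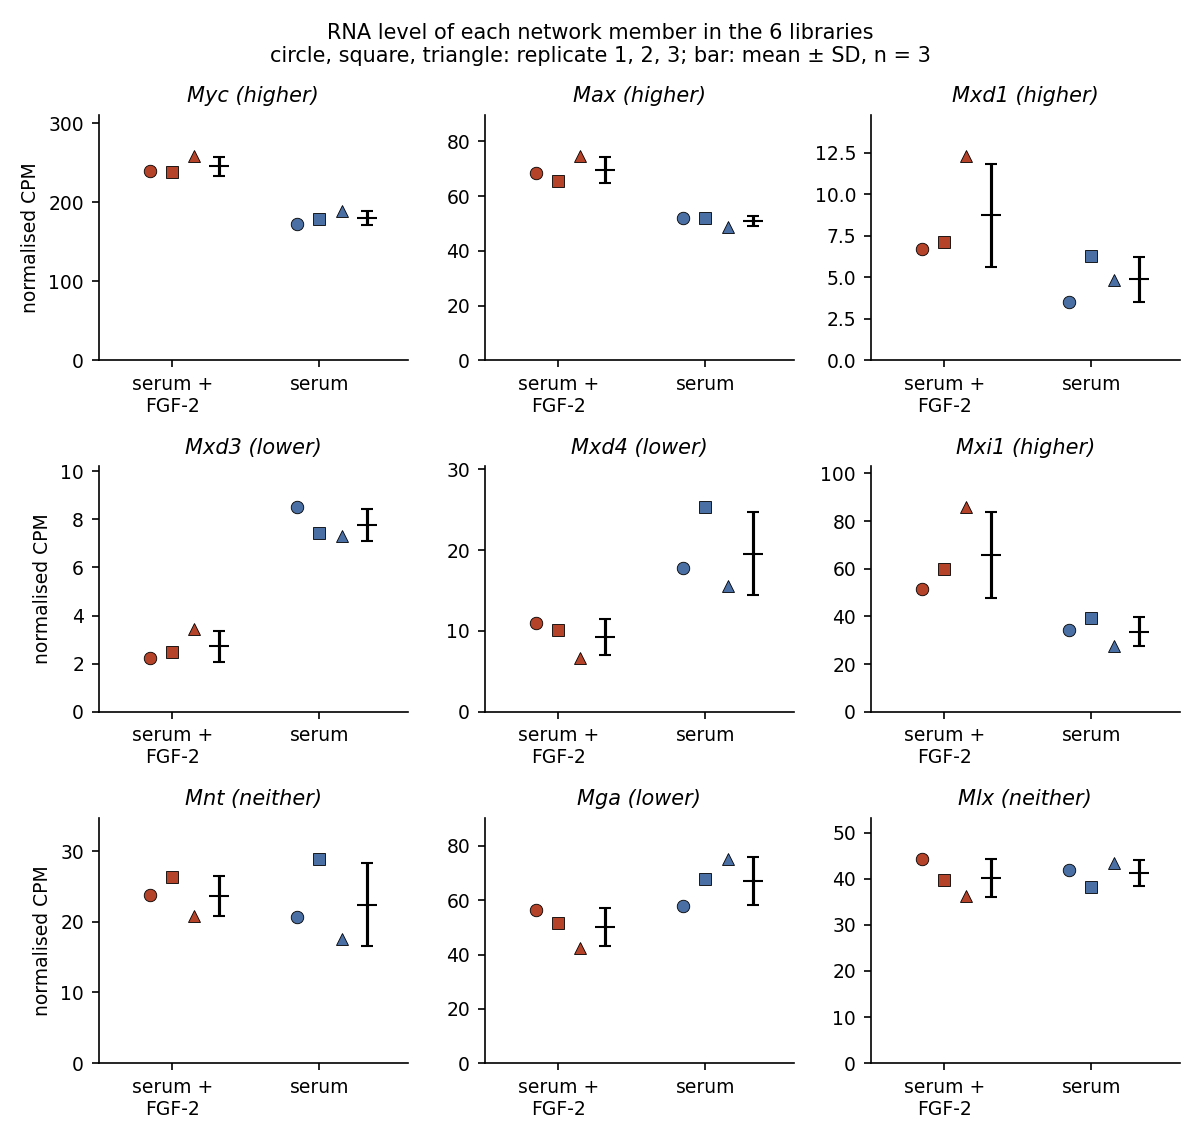
RNA level of the 9 detected network genes in each library (normalised CPM, linear axis from 0), with serum + FGF-2 on the left, serum alone on the right and black bars for mean ± SD of 3 libraries. Myc, Max, Mxd1 and Mxi1 sit higher and Mxd3, Mxd4 and Mga lower in all 3 FGF-2 libraries, while the groups of Mnt and Mlx overlap.

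Myc, the activator of the network, stood at 239, 238 and 259 CPM in the FGF-2 libraries, against 172, 179 and 189 CPM in the serum libraries. Every FGF-2 library lay above every serum library, and the spread within a group was small beside the gap. The means were 245 ± 11.8 CPM with FGF-2 and 180 ± 8.36 CPM with serum alone (SD, n = 3 each), a log2 fold change of 0.45 ± 0.10 (SE; adjusted p = 0.0053, edgeR with Benjamini-Hochberg). Mycn, the paralogue best known from neural tumours, was listed at 0 counts in all 6 libraries. That 0 does not show that the gene was silent, because Gsk3b, Nop56 and Nr0b1, and Col1a2 beside an abundant Col1a1, are also listed at 0 in every library.

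Max, the partner that MYC, MXD, MNT and MGA proteins need to bind DNA, stood at 68.6, 65.5 and 74.8 CPM with FGF-2, against 52.1, 52.0 and 48.6 CPM with serum alone. The groups were apart, with a log2 fold change of 0.45 ± 0.11 (adjusted p = 0.00654, edgeR with Benjamini-Hochberg), close in size to that of Myc. Mlx, the partner used by the glucose-sensing arm, stood at 44.4, 39.8 and 36.2 CPM with FGF-2 and 42.0, 38.2 and 43.5 CPM with serum alone. The Mlx libraries of the groups interleaved, and the log2 fold change was -0.032 ± 0.12 (adjusted p = 0.843, edgeR with Benjamini-Hochberg).

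The repressors split into genes that rose and genes that fell. Mxi1, which recruits the SIN3 corepressor to MAX-bound sites, stood at 51.6, 59.9 and 85.8 CPM with FGF-2, against 34.4, 39.2 and 27.4 CPM with serum alone. It was the largest increase of the network, with a log2 fold change of 0.95 ± 0.20 (adjusted p = 0.00485, edgeR with Benjamini-Hochberg), and FGF-2 library 3 was the highest. Mxd1, a repressor that rises in many differentiating cells, was a low gene at 6.73, 7.15 and 12.3 CPM with FGF-2, against 3.54, 6.28 and 4.81 CPM with serum alone. Its log2 fold change of 0.80 ± 0.30 only just passed (adjusted p = 0.0482, edgeR with Benjamini-Hochberg), the lowest FGF-2 library lay close to the highest serum library, and the gene had at most 81 counts in any library.

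Mxd3 and Mxd4, the other MXD repressors, moved the opposite way. Mxd3, known for its expression in dividing cells, stood at 2.24, 2.47 and 3.44 CPM with FGF-2, against 8.51, 7.45 and 7.30 CPM with serum alone. The groups were far apart for so low a gene, with 19 to 28 counts per library with FGF-2 and 44 to 89 with serum alone, and the log2 fold change was -1.56 ± 0.23 (adjusted p = 0.000542, edgeR with Benjamini-Hochberg). Mxd4 stood at 11.0, 10.1 and 6.70 CPM with FGF-2, against 17.8, 25.3 and 15.6 CPM with serum alone. All FGF-2 libraries were below all serum libraries, with a log2 fold change of -1.06 ± 0.23 (adjusted p = 0.00434, edgeR with Benjamini-Hochberg).

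Mnt, the broadly expressed repressor that pairs with both MAX and MLX, stood at 23.8, 26.4 and 20.8 CPM with FGF-2 and 20.7, 28.9 and 17.6 CPM with serum alone. The groups overlapped over most of their range, and the log2 fold change was 0.076 ± 0.18 (adjusted p = 0.756, edgeR with Benjamini-Hochberg). Mga, the large scaffold protein that joins MAX to a Polycomb complex, stood at 56.5, 51.6 and 42.4 CPM with FGF-2, against 57.9, 67.9 and 75.4 CPM with serum alone. The nearest libraries of the groups almost touched, and the log2 fold change was -0.41 ± 0.14 (adjusted p = 0.0369, edgeR with Benjamini-Hochberg).

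Reads where genes overlap are uncertain, since the strand setting of the counting is not known here: in RefSeq, Mxd1 shares 9111 bases with the noncoding gene Gm38850, Mxi1 16740 with Gm30541, Mga 638 with a pseudogene, Mxd3 103 with Prelid1 and Mlx 67 with Psmc3ip. Mxd3, Mxd4 and Mxi1 passed the test in each of the 15 other settings run, with adjusted p-values up to 0.00356 for Mxd3, 0.0194 for Mxd4 and 0.0275 for Mxi1. Myc and Max passed in all but 1, the scaling by library totals alone, where their log2 fold changes were 0.11 and 0.10. Such scaling moved the median of all genes to -0.36, and upper-quartile scaling moved it to -0.16. Relative to those medians the log2 fold changes of Myc and Max were 0.47 under both, and those of Mxi1, Mxd3 and Mxd4 were 0.97, -1.53 and -1.03 with upper quartiles. Scaling shifts all genes nearly alike, so subtracting the median returns nearly the main values by construction. It cannot show which scaling is right. The share of higher genes among all calls, 47.7%, was 32.7% with upper quartiles and 18.1% with library totals, where Mlx also passed as lower at -0.37.

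The calls of Mxd1 and Mga were not stable. Without both libraries numbered 3, the log2 fold change of Mxd1 was 0.52 (edgeR adjusted p = 0.141) and that of Mga -0.21 (edgeR adjusted p = 0.155). Mxd1 also failed without FGF-2 library 2, FGF-2 library 3, serum library 1 or serum library 3, at log2 fold changes of 0.93, 0.52, 0.59 and 0.79, with limma-voom (0.74), and with scaling by upper quartiles (0.66) or library totals (0.46). Mga failed without FGF-2 library 2, FGF-2 library 3, serum library 2 or serum library 3, at -0.42, -0.30, -0.40 and -0.32, and in the authors' deposited DESeq2 table, at -0.388 with an adjusted p of 0.0562. For the other tested genes the authors' deposited table made the same calls, with log2 fold changes of 0.467 for Myc, 0.468 for Max, 0.978 for Mxi1, 0.841 for Mxd1, -1.53 for Mxd3 and -1.04 for Mxd4. Without both libraries numbered 3 the log2 fold change of Mxi1 was 0.62, against 0.95 with them.

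Counts were also set against those of Max in the same library, which removes the scaling between libraries and is read here only across libraries of 1 gene, since the values are not per length. Myc had 3.48, 3.63 and 3.46 counts per Max count with FGF-2 and 3.31, 3.44 and 3.88 with serum alone, so the ranges of both groups overlapped. Mxd3 had 0.0327, 0.0377 and 0.0460 counts per Max count with FGF-2, against 0.163, 0.143 and 0.150 with serum alone. Mxd4 had 0.161, 0.154 and 0.0896 with FGF-2, against 0.341, 0.487 and 0.321 with serum alone. Both MXD genes were thus lower per Max count in every FGF-2 library. Mga was lower per Max count as well, at 0.822, 0.788 and 0.567 with FGF-2 and 1.11, 1.30 and 1.55 with serum alone, and so was Mlx, at 0.484 to 0.646 with FGF-2 and 0.734 to 0.894 with serum alone. Mlx RNA itself did not pass the test, while Max, under the line of this ratio, rose. A rise of Max lowers the ratio of every gene, and the share of all genes lower per Max count was not counted. Mxi1 had 0.751, 0.915 and 1.15 counts per Max count with FGF-2 and 0.661, 0.753 and 0.563 with serum alone, where the lowest FGF-2 library fell just within the serum range. The ratios of Mxd1 and Mnt overlapped as well.

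Across the 6 libraries, the tested genes most alike to Myc by Pearson correlation of log2(CPM + 1), over the 7789 genes that averaged 10 CPM or more, were Cdh17 (0.9997), Cep120 (0.9995) and Bpifc (0.9994). Cdh17, a cadherin, averaged 128 ± 51.2 CPM with FGF-2 and 7.73 ± 3.71 CPM with serum alone, Cep120, a centriole protein, 73.4 ± 8.17 and 36.6 ± 3.69 CPM, and Bpifc 19.9 ± 9.20 and 0.529 ± 0.588 CPM (SD, n = 3 each). Within the network the coefficients with Myc were 0.950 for Max, 0.880 for Mxi1 and 0.842 for Mxd1, and -0.926 for Mxd4, -0.922 for Mxd3 and -0.771 for Mga. These are descriptions over libraries that share the treatment contrast. Cdh17 and Bpifc averaged below 10 CPM with serum alone and passed the filter of 10 CPM only through the FGF-2 libraries, where they are high. What sets their rank was not tested.

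At the chromatin level, H3K27ac marked the start site of all 9 genes that have a region, and 2 of the 28 regions passed the test with FGF-2, neither of them at a start, against 16.3% of all regions. Of these regions, 13 lie within 1 kb of a start site and 15 farther away. By limma on log2(signal + 1), adjusted over all 40772 regions, 1 region rose, against 12.6% of all regions, and 1 fell, against 3.73%. Both were among the 15 farther away, and of all regions beyond 1 kb 17.0% rose and 4.76% fell. None of the 13 regions within 1 kb of a start site passed, 1 of them had an unadjusted limma p under 0.05, and their median log2 fold change was 0.061, against 0.050 for the 12484 such regions in the table. Of those 12484, 2.67% rose and 1.39% fell, and 10.1% had an unadjusted p under 0.05, so 0 calls among 13 is near the background. Of all 28 regions, 5 had an unadjusted p under 0.05, against 26.7% of all regions. In the authors' deposited table no network region passed a false discovery rate of 0.05, against 9.98% of all regions (8.33% higher and 1.64% lower). There, 3 of the 28 had a p under 0.05, against 8378 of all 40772 regions. With edgeR on whole reads recovered from the signal, which called 4315 regions higher and 2726 lower in all, 0 network regions rose and 2 fell. The share of higher regions among all calls was 77.2% with limma, 61.3% with edgeR on recovered reads and 56.4% after quantile normalisation, where the median over all regions was 0.11, -0.018 and -0.057.

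**Figure D2:**
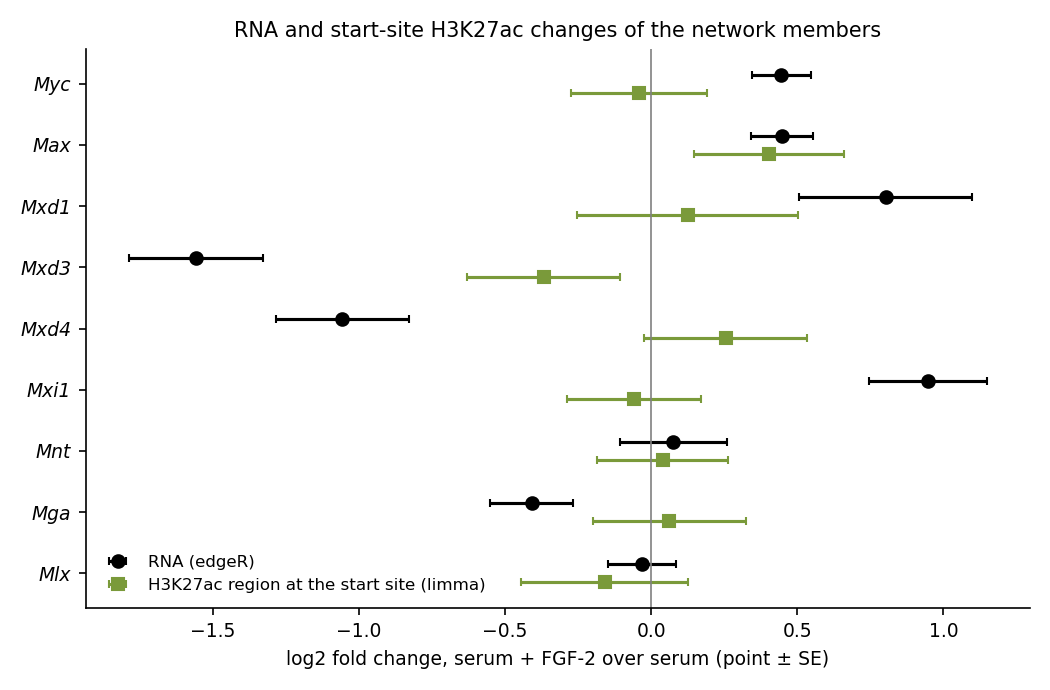
Log2 fold change of serum + FGF-2 over serum alone (point ± SE) for the RNA of each member (black circles, edgeR, 3 libraries per group) and for the H3K27ac region nearest its start site (green squares, limma, 2 libraries per group). The RNA points run from -1.56 for Mxd3 to 0.95 for Mxi1, while the start-site regions stay between -0.37 for Mxd3 and 0.40 for Max and none passed the test.

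The signals that follow are the authors' normalised reads per region, with coordinates in mm10. The broad Myc start-site region, chr15:61983666-61990038, had 584 and 637 with FGF-2 and 666 and 591 with serum alone. The libraries of the groups interleaved, at a log2 fold change of -0.040 ± 0.23 (limma adjusted p = 0.95), although Myc RNA rose. The start-site region of Mxi1, chr19:53310466-53315374, had 689 and 770 with FGF-2 and 832 and 692 with serum alone, a log2 fold change of -0.058 ± 0.23 (limma adjusted p = 0.924). Here too the RNA rose while the mark showed no difference beyond its spread. The second Mxi1 start, chr19:53329004-53330587, had 76.1 and 79 with FGF-2 and 105 and 82.7 with serum alone, at -0.26 ± 0.29 (limma adjusted p = 0.642).

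Max has a pair of regions at its start, 217 bases apart. The larger, chr12:76960956-76962283, had 227 and 216 with FGF-2, against 193 and 145 with serum alone, and the smaller, chr12:76962501-76963057, had 44.7 and 51 with FGF-2, against 35.0 and 16.7 with serum alone. In both, the FGF-2 libraries lay above the serum libraries without passing the test, at log2 fold changes of 0.40 ± 0.26 (limma adjusted p = 0.327) and 0.95 ± 0.36 (limma adjusted p = 0.0547). Without serum library 1 both passed, at 0.61 and 1.46, where the median of all regions moved to 0.26, and without serum library 2 they had 0.20 (limma adjusted p = 0.572) and 0.44 (limma adjusted p = 0.476). The Max region with the lowest fold change, chr12:77039568-77040179, lies at -77.3 kb from the start and had -0.16 ± 0.35 (limma adjusted p = 0.845).

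**Figure D3:**
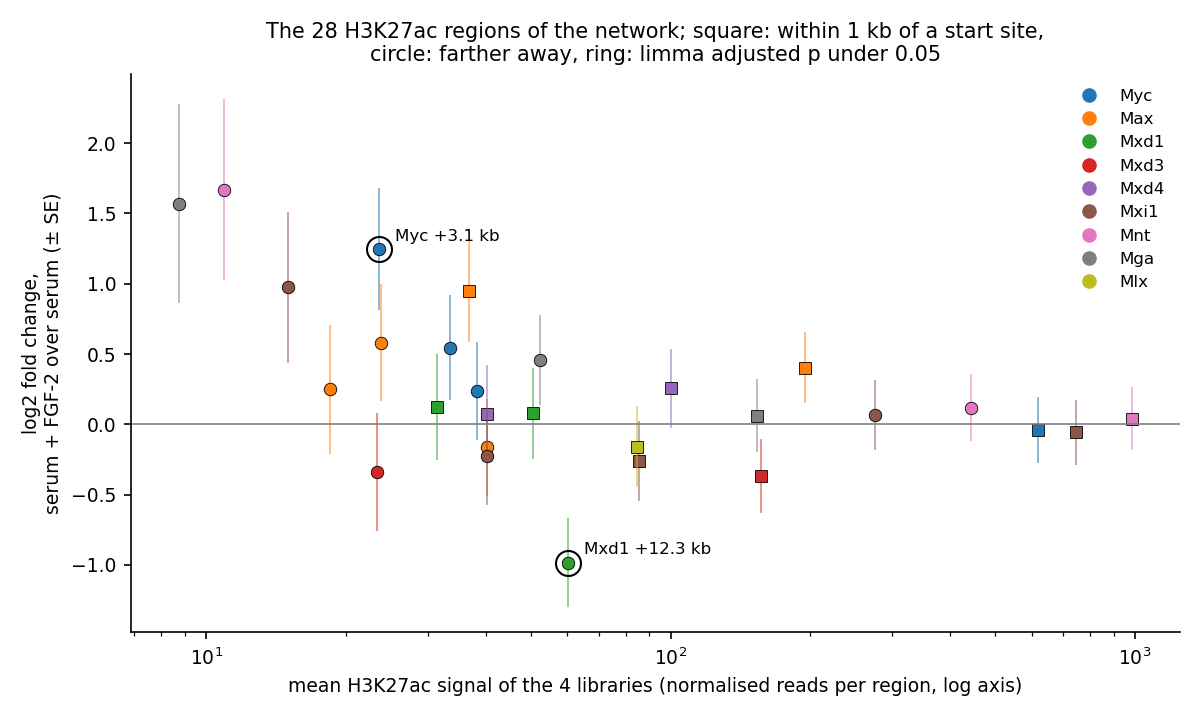
Mean H3K27ac signal over the 4 libraries (x axis, log scale, normalised reads per region) against the log2 fold change of serum + FGF-2 over serum alone (y axis, ± SE) for the 28 regions of the network, coloured by gene, with squares within 1 kb of a start site and circles farther away. The strongest regions lie near 0, the fold changes above 1.5 come from regions with a mean signal near 10, and rings mark the called regions at Myc and Mxd1.

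The region that rose lies just past the end of Myc, at chr15:61990558-61991361, beginning 197 bases beyond the last base of the RefSeq gene. It had 30.4 and 36 with FGF-2, against 10.1 and 17.6 with serum alone. The groups were apart, with a log2 fold change of 1.25 ± 0.43 (limma adjusted p = 0.0284), and the region rests on 11 to 36 recovered reads per library. The call was lost without FGF-2 library 1 (1.37), FGF-2 library 2 (1.13) or serum library 1 (0.88), with edgeR on recovered reads (1.09, adjusted p = 0.111) and in the authors' deposited table, at 1.26 with a false discovery rate of 0.168. The other regions downstream of Myc, to 11.2 kb from the start, had log2 fold changes of 0.24 and 0.55 and did not pass.

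The region that fell lies in intron 3 of Mxd1, at chr6:86655598-86656898, 12.3 kb into the gene. It had 28.5 and 52 with FGF-2, against 100 and 59.3 with serum alone, so the groups were apart but each was widely spread. The log2 fold change was -0.98 ± 0.32 (limma adjusted p = 0.0162), opposite in sign to that of Mxd1 RNA. It passed with edgeR on recovered reads (-1.10, adjusted p = 0.0251) but not without FGF-2 library 1 (-0.56) or serum library 1 (-0.61), nor in the authors' deposited table, at -0.99 with a false discovery rate of 0.115. The Mxd1 regions on either side of the start, 422 bases apart, had log2 fold changes of 0.12 and 0.078 and did not pass.

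**Figure D4:**
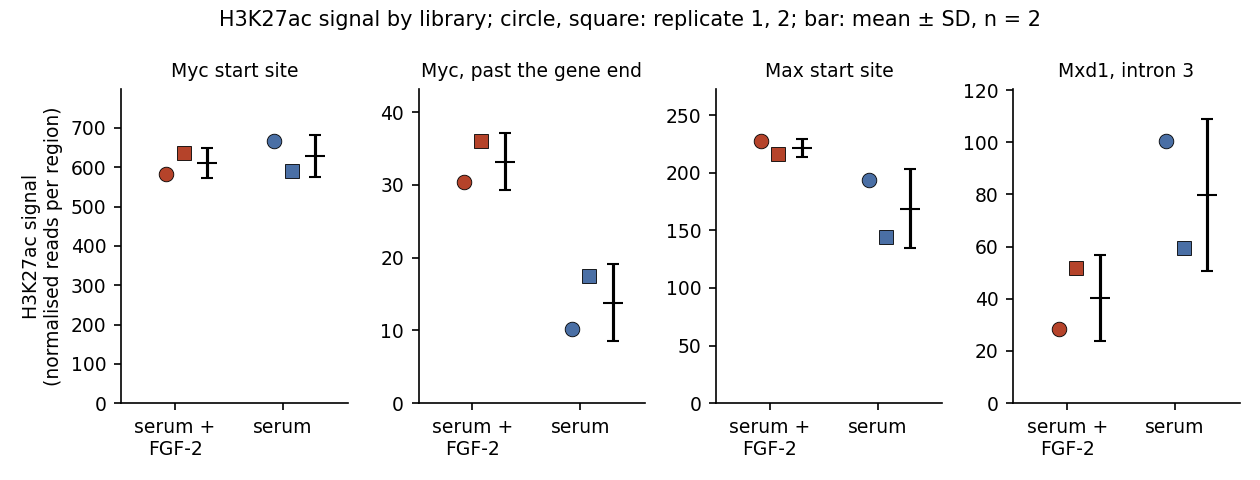
H3K27ac signal (normalised reads per region, linear axis from 0) of 4 regions in each library, with serum + FGF-2 left of serum alone and black bars for mean ± SD of 2 libraries. The groups overlap at the Myc start site, and they are apart past the end of Myc, at the Max start and in Mxd1 intron 3, where only the Myc gene-end and Mxd1 regions passed limma's test.

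Among the genes whose RNA fell, Mxd3 had a start-site region, chr13:55329245-55331354, at 132 and 140 with FGF-2, against 200.7 and 154 with serum alone. Both FGF-2 libraries lay below the serum libraries, at -0.37 ± 0.26 (limma adjusted p = 0.405), and the region passed as lower with edgeR on recovered reads (-0.50, adjusted p = 0.0327) and after quantile normalisation (-0.47, adjusted p = 0.0438). The table ties that region also to Prelid1, the gene that starts beside Mxd3, whose RNA had a log2 fold change of 0.077 ± 0.11 (edgeR adjusted p = 0.577). The upstream Mxd3 region had -0.34 ± 0.42. Mxd4 had 104 and 109 at its start site, chr5:34186619-34187718, with FGF-2 and 124 and 63.5 with serum alone, with serum libraries on both sides of the FGF-2 libraries (0.25 ± 0.28, limma adjusted p = 0.645). It passed as higher without serum library 1, at 0.73, and had -0.22 without serum library 2 (limma adjusted p = 0.609). Its neighbouring region had 0.072 ± 0.35.

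Mga had 158 and 156 at its start site, chr2:119872211-119874449, with FGF-2 and 164 and 138 with serum alone, at 0.061 ± 0.26 (limma adjusted p = 0.93). A weak region at -30.6 kb from the start, chr2:119841746-119841994, had 17.1 and 10 with FGF-2, against 2.76 and 5.01 with serum alone, at 1.57 ± 0.71 (limma adjusted p = 0.122). Mnt had the strongest region of the network at its start, chr11:74829179-74836373, at 962 and 1035 with FGF-2 and 1048 and 900 with serum alone, a log2 fold change of 0.039 ± 0.23 (limma adjusted p = 0.949). A weak region at -7.5 kb from the Mnt start, chr11:74823119-74823411, which the table ties also to Mettl16, had 15.2 and 19 with FGF-2, against 3.68 and 5.85 with serum alone. Its log2 fold change of 1.67 ± 0.64 was the highest of the network and did not pass (limma adjusted p = 0.0564), and it passed without serum library 2, at 1.94. The weakest Mxi1 region, in intron 1 at chr19:53328357-53328865, had 13.3 and 26 with FGF-2 and 15.7 and 5.01 with serum alone, at 0.97 ± 0.54 (limma adjusted p = 0.232), with 1.71 without serum library 1, 0.24 without serum library 2 and 0.52 without FGF-2 library 2. Mlx had a single region, chr11:101086458-101088033, at 79.9 and 80 with FGF-2 and 98.5 and 81.1 with serum alone (-0.16 ± 0.29, limma adjusted p = 0.813). The table ties it also to Psmc3ip and Coasy, whose RNA fell by 0.66 and 0.69 on the log2 scale (edgeR adjusted p = 0.0461 and 0.00078).

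The authors' peak lists, called per library, place a peak in all 4 libraries at 22 of the 28 regions. At 2 regions, the weak ones upstream of Mnt and Mga, peaks were called in FGF-2 libraries and in no serum library, and at 0 regions the reverse held. The FGF-2 lists were longer, with 50317 and 46712 peaks, against 44340 and 41975 with serum alone. Shares over all regions were not counted, so these counts are descriptive only. The region past the end of Myc had a peak in every library but serum library 1. The authors' best fold over background at the Myc start site was 18.1 and 24.9 with FGF-2 and 28.6 and 24.3 with serum alone. At the Mxi1 start it was 48.0 and 33.6 with FGF-2 and 58.5 and 47.2 with serum alone, and at the Mnt start 42.0 and 44.5 with FGF-2 and 52.6 and 51.4 with serum alone. Each list has its own input and depth, with 110273836 input fragments for serum library 2 and 12241177 to 15672630 for the others, so these values describe peaks within a list.

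Of 36 listed genes that MYC and MAX are known to activate, 33 were tested, and 17 rose and 1 fell. These are 51.5% and 3.03% of the list, against 22.1% and 24.2% of all tested genes, and the median log2 fold change was 0.31, against -0.023 over all tested genes. This list and those that follow were chosen with earlier results of these data known, so their shares are descriptive only. The largest increases were Odc1, the first enzyme of polyamine synthesis, at 1466 ± 533 CPM with FGF-2 and 294 ± 85.8 CPM with serum alone (2.32 ± 0.30, edgeR adjusted p = 0.000589), and Slc2a1, the glucose transporter GLUT1, at 603 ± 58.4 and 134 ± 24.9 CPM (2.17 ± 0.16, edgeR adjusted p = 1.31e-05). Eif4e, the cap-binding translation factor, averaged 325 ± 153 CPM with FGF-2 and 91.1 ± 8.33 CPM with serum alone (1.83 ± 0.31, edgeR adjusted p = 0.00327). The other 14 that rose had log2 fold changes of 0.27 to 0.88. Tert, the telomerase catalytic subunit, fell to 9.13 ± 3.04 CPM with FGF-2, against 23.4 ± 3.76 CPM with serum alone (-1.31 ± 0.23, edgeR adjusted p = 0.00151). The split depends on the scaling and on single libraries: 10 rose and 5 fell with upper quartiles, 5 and 6 with library totals, 9 and 1 when serum library 2 was left out, 15 and 3 when serum library 3 was, while 2 fell without FGF-2 library 2, FGF-2 library 3 or serum library 1. Of all tested genes 15.6% rose and 32% fell with upper quartiles, and 9.98% rose and 45.1% fell with library totals. Without serum library 2, 15.4% of all tested genes rose and 17.9% fell, and without serum library 3, 22.8% and 23.95%. Without both libraries numbered 3, 17 of the list rose and 3 fell, where 25.1% of all tested genes rose and 25.75% fell.

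Of 9 genes that MYC is known to repress, 5 were tested, and 2 rose and 2 fell, with 22.1% and 24.2% of all tested genes called in those directions. Cdkn1a, the cell cycle inhibitor p21, averaged 1118 ± 348 CPM with FGF-2 and 246 ± 98.0 CPM with serum alone (2.19 ± 0.33, edgeR adjusted p = 0.00144). Its relative Cdkn1b, or p27, fell to 18.3, 18.3 and 14.5 CPM with FGF-2, against 33.1, 39.3 and 26.1 CPM with serum alone (-0.94 ± 0.17, edgeR adjusted p = 0.00152). Gas1, a gene of growth-arrested cells, also fell (-1.49 ± 0.16, edgeR adjusted p = 8.95e-05). Ndrg1 stood at 4.29, 3.0 and 20.1 CPM with FGF-2 and 0.669, 0.213 and 0.664 CPM with serum alone (4.03 ± 1.04, edgeR adjusted p = 0.0202), a call resting on 2 to 7 counts per serum library that was lost without serum library 1 (4.36) or serum library 2 (3.63). Its log2 fold change was 2.82 without FGF-2 library 3 and 2.99 without both libraries numbered 3, and it passed in both.

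**Figure D5:**
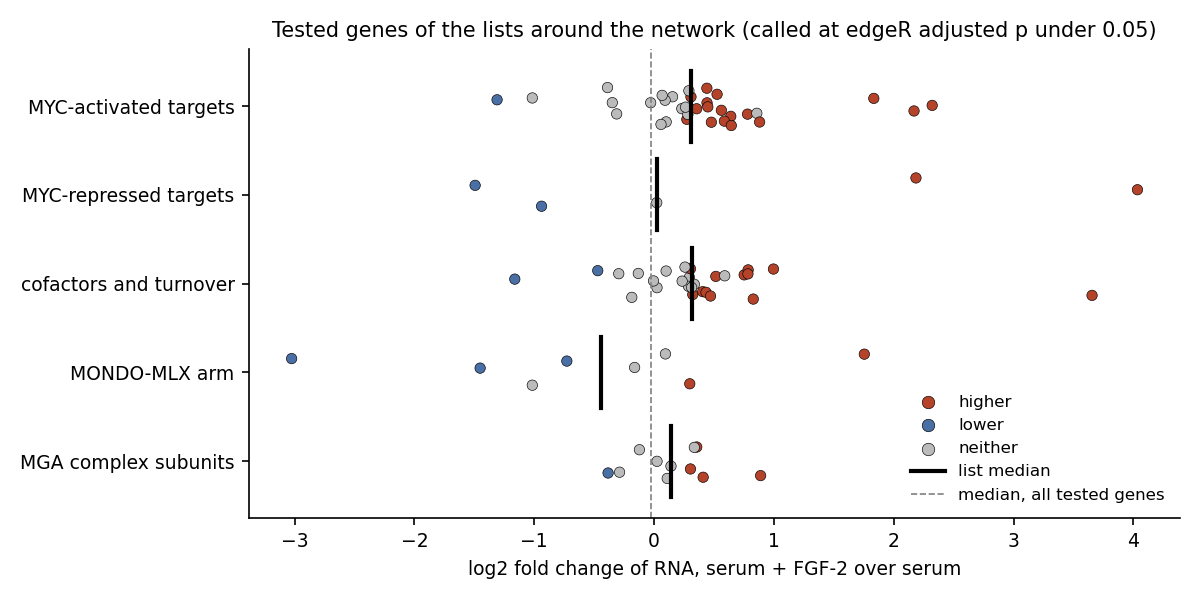
Log2 fold changes of RNA (serum + FGF-2 over serum alone) of the tested genes in 5 lists around the network, 1 point per gene, red for higher, blue for lower and grey for neither, with black bars at list medians and a dashed line at the median of all tested genes. MYC-activated targets and MYC cofactors have medians of 0.31 and the MONDO-MLX list one of -0.45, against -0.023 for all tested genes.

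Among 29 cofactors and regulators of MYC turnover, 27 were tested, 12 rose and 2 fell (median 0.31), or 44.4% and 7.41%, against 22.1% and 24.2% of all tested genes. Pim1, a kinase that phosphorylates MYC and histone H3 beside it, averaged 407 ± 49.2 CPM with FGF-2 and 32.7 ± 12.5 CPM with serum alone (3.65 ± 0.26, edgeR adjusted p = 4.12e-05). Usp28, which removes ubiquitin from MYC, rose by 1.00 ± 0.17, and Zbtb17, the MYC-binding factor MIZ1, by 0.83 ± 0.15. Aurka, a kinase that can stabilise MYCN and serves mitosis, fell to 20.4 ± 2.17 CPM with FGF-2, against 45.3 ± 6.06 CPM with serum alone (-1.16 ± 0.14, edgeR adjusted p = 0.000151). Kat2a, the GCN5 acetyltransferase, fell as well (-0.47 ± 0.11, edgeR adjusted p = 0.00727). With library totals 5 rose and 5 fell.

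In the glucose-sensing arm around Mlx, 8 of 11 listed genes were tested, with 2 higher, 3 lower and a median of -0.45. That is 25.0% and 37.5%, against 22.1% and 24.2% of all tested genes, and Mlxipl, Arrdc4 and Pklr were listed at 0. Txnip, a brake on glucose uptake and a classic target of MLXIP with MLX, stood at 5.46, 4.59 and 10.3 CPM with FGF-2, against 42.7, 70.9 and 41.7 CPM with serum alone (-3.03 ± 0.34, edgeR adjusted p = 0.000392). The fatty acid metabolism genes Acacb and Elovl6 fell (-1.45 ± 0.16 and -0.73 ± 0.15). Acaca and Fasn, of fatty acid synthesis, did not pass the test (-0.16 and 0.094, edgeR adjusted p = 0.412 and 0.616). Pfkfb3, a driver of glycolysis, rose to 126 ± 8.84 CPM with FGF-2, against 37.5 ± 5.42 CPM with serum alone (1.75 ± 0.13, edgeR adjusted p = 1.35e-05). Mlxip, the MONDOA partner of MLX, averaged 126 ± 7.30 CPM with FGF-2 and 103 ± 5.44 CPM with serum alone (0.30 ± 0.10, edgeR adjusted p = 0.034), a call lost with upper quartiles (0.16) and without FGF-2 library 1 (0.30), FGF-2 library 3 (0.26), serum library 1 (0.33) or serum library 2 (0.25), and turned to -0.043 with library totals.

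Of 13 subunits of the MGA-containing Polycomb complex, 11 were tested, 4 rose and 1 fell, or 36.4% and 9.09%, against 22.1% and 24.2% of all tested genes. Rybp, which binds the RING proteins, averaged 28.7 ± 5.93 CPM with FGF-2 and 15.3 ± 0.875 CPM with serum alone (0.89 ± 0.17, edgeR adjusted p = 0.00201). Rnf2 and Ring1, the paired ubiquitin ligases, had log2 fold changes of 0.41 ± 0.13 (edgeR adjusted p = 0.0284) and -0.38 ± 0.13 (edgeR adjusted p = 0.0315), and Yaf2, a relative of Rybp, 0.36 ± 0.12 (edgeR adjusted p = 0.0327). Left-out libraries ended these last 3 calls: Rnf2 without FGF-2 library 2 (0.41), FGF-2 library 3 (0.33), serum library 2 (0.34) or serum library 3 (0.36), and Ring1 without FGF-2 library 1 (-0.30), serum library 1 (-0.38) or serum library 2 (-0.33). Yaf2 lost its call without any library but serum library 1, at 0.27 to 0.39. Without both libraries numbered 3, Rnf2 had 0.30 (edgeR adjusted p = 0.0738) and Yaf2 0.24 (edgeR adjusted p = 0.0867). Without serum library 2 or FGF-2 library 3, 1 subunit rose, and without FGF-2 library 2 or serum library 3, 2 rose. Of 13 germ cell genes that this complex silences in mouse, 1 was tested, Zcwpw1, which fell to 14.9 ± 1.31 CPM with FGF-2, against 23.3 ± 3.13 CPM with serum alone (-0.66 ± 0.15, edgeR adjusted p = 0.00477), and 6 were listed at 0 in every library.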

How the data were processed

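RNA was deposited as raw counts of reads for each gene symbol, per the labels, and the submitters' processing notes name STAR 2.5.2a, HTSeq 0.10.0, MACS2 2.2.6, DiffBind, ChIPseeker and DESeq2, with the mouse build mm10. For the annotation, strand setting and DiffBind settings: not given in the sources used here. Reads that fell in no gene or in several, 37.0% to 43.2% of each library, were left out. RNA was tested with edgeR 4.0.16 (quasi-likelihood, robust, TMM, filterByExpr) in R 4.3.3 over 10374 genes, with Benjamini-Hochberg adjustment at 0.05, and CPM carry the TMM factors.

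The authors' deposited region table gives a normalised signal per library, a log2 fold, p-values and a false discovery rate, per the file headers. Signal was tested with limma 3.58.1 (trend, robust) on log2(signal + 1), so fold changes of weak regions are understated. Whole reads were recovered from the signal for 99.9975% of values in serum library 2 and 100% in the other 3 libraries, within 0.02 reads, and edgeR was run on them. Recovered reads in regions were 4243872 and 4102511 with FGF-2 and 4542564 and 3964691 with serum alone. Peaks were called per library against its own input, per the file headers, which give a pileup signal, a fold (a ratio over background) and −log10 p and q as the authors' values. The authors' deposited DESeq2 table holds log2 fold changes, a Wald score, p-values and a base mean signal.

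The members and gene lists were chosen with earlier results of these data known, from general knowledge of the pathway. Named were all members, the region nearest the start and those of highest and lowest fold change per member, up to 3 called genes each way per list, and the 3 genes most alike to Myc. Genes in 2 lists (Wdr5, Hdac1, Hdac2, Hk2) count in both. Alternatives were DESeq2 1.42.0, limma-voom, other scalings, filters and pseudocounts, left-out libraries, and a replicate block. Leaving out both libraries numbered 3, and crossing the H3K27ac pairs, were added after seeing the data. The tests were run first on simulated data. Python 3.11.15 drew the figures and searched motifs.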

Additional observations from a re-analysis of the deposited data

How the results depend on the processing

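For the 9 tested members, 111 of the values under other settings kept their direction and their side of the threshold. Of the rest, 16 lost the call and 1, Mlx with library totals, gained one. Another 7 changed sign without passing in the main fit or in that setting. For the 28 regions 280 kept both, 31 changed sign without passing in the main fit or in that setting, 12 lost the call and 9 gained one. For the genes named from lists 361 kept, 28 lost and 1 reversed, Mlxip at -0.043 with library totals. Limits are the low counts of Mxd1, the 2 libraries per group for H3K27ac, where a left-out library leaves a lone one assumed to vary like the other group, and scaling between libraries.

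Calls over all tested genes moved with the settings as well. In the main fit 22.1% rose and 24.2% fell, with 22.4% and 24.7% by limma-voom and 15.6% and 32% by upper quartiles. By library totals 9.98% rose and 45.1% fell, and with no filter 15.6% and 15.55%. DESeq2 called 2385 of 11952 genes higher and 2140 lower. With libraries left out 15.4% to 25.1% rose and 17.9% to 25.75% fell. Members that rose numbered 4, with 3 by upper quartiles, 3 by limma-voom, 1 by library totals and 3 to 4 with libraries left out. Members that fell numbered 3, with 4 by library totals, 2 by DESeq2 and 2 to 3 with libraries left out. MYC-activated genes that rose numbered 17, with 10 by upper quartiles, 5 by library totals and 9 to 17 with libraries left out. Those that fell numbered 1, with 2 by DESeq2, 2 with no filter, 5 by upper quartiles, 6 by library totals, 4 with the replicate block and 1 to 3 with libraries left out. MYC-repressed genes that rose numbered 2, with 1 by limma-voom, 1 with no filter and 1 to 2 with libraries left out. Cofactors that rose numbered 12 and those that fell 2, with 5 and 5 by library totals. In the MONDO-MLX list 2 rose, with 1 by upper quartiles, 1 by library totals and 1 to 2 with libraries left out, and 3 fell, with 5 by library totals. Of the MGA complex 4 rose, with 1 by upper quartiles, 1 by library totals and 1 to 4 with libraries left out, and 1 fell, with 0 by DESeq2, 2 by upper quartiles, 3 by library totals and 0 to 2 with libraries left out.

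Network regions that rose numbered 1, with 0 in the authors' deposited table, 0 by edgeR on recovered reads, 0 after quantile normalisation, 0 among regions with a mean signal of at least 20, 2 at a pseudocount of 10, and 0 to 3 with libraries left out. Those that fell numbered 1, with 0 in the authors' deposited table, 2 by edgeR on recovered reads, 2 after quantile normalisation and 0 to 1 with libraries left out. Regions with a peak in all 4 libraries numbered 22, with 20 at a −log10 q of at least 5 and 17 at an overlap of at least 50%. Of all regions 12.6% rose and 3.73% fell in the main fit, with 10.6% and 6.69% by edgeR on recovered reads. After quantile normalisation 8.83% rose and 6.84% fell, and at a pseudocount of 10, 13.1% and 3.94%. Among regions with a mean signal of at least 20, 11.0% rose and 3.46% fell. The share of all regions called moved with left-out libraries too. The cause of these moves was not tested.

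Same-numbered RNA libraries were not always the most alike: their deviations correlated at -0.125, 0.054 and 0.387. Deviations were taken from the mean of each group of 3, which forces both signs among such values. They therefore cannot settle whether the RNA libraries were paired. FGF-2 library 3 correlated best with serum library 3, while FGF-2 libraries 1 and 2 correlated best with serum libraries 2 and 1 (0.426 and 0.335). Same-numbered H3K27ac libraries had -0.217 and crossed ones 0.217. With 2 libraries per group these values mirror each other, so they cannot show whether the numbers pair. With the replicate block 4 members rose and 3 fell in RNA, with 2375 genes higher and 2642 lower over all, and 0 network regions rose and 0 fell, with 3997 and 947 over all regions. With crossed pairs 3 network regions rose and 1 fell, with 6230 and 2194 over all regions.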
